A study of Mus musculus with 16 samples.

Results

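The 40 chaperonin, heat shock protein and cochaperone genes of a fixed list of symbols were followed through 6 sorted states of mouse germinal centre and memory B cells. Members were found by symbol, and the list was drawn up with earlier results of these data known. All 40 were found among the 23234 named genes of the table, and 38 passed the filter on low values of at least 1 FPKM (fragments per kilobase of transcript, scaled to the mapped fragments of the library) in at least 2 libraries. Hspa1a and Hspa1b did not pass. The 40 members make up 9 role lists: 8 subunits of the CCT chaperonin, 4 of prefoldin, 5 mitochondrial chaperones, 6 cytosolic HSP70 and HSP110 proteins, 4 J-domain cochaperones, 2 cytosolic HSP90 proteins, 7 cochaperones of HSP70 and HSP90, 2 BAG exchange factors and 2 heat shock factors.

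All 16 libraries came from C57BL/6 donor B cells of genotype Bcl6-YFP(KI/+) B1-8hi(KI/+), which bind the hapten NP and carry a YFP reporter of Bcl6. Naive donor cells were moved into wild-type CD45.1 mice, the hosts were immunised intraperitoneally with NP-CGG in alum, and spleens of 9 hosts were pooled on day 10. Donor cells that bound NP, were IgG1-positive and CD138-negative were sorted, 10000 to 20000 per library, so all gates share the knock-in receptor, the reporter and the immunisation. The LZ gate (n = 3) held light zone cells, sorted as CD38-negative with high CD86 and low CXCR4. Within that phenotype, Fraction 2 (n = 2, named recycling-prone in the labels) was Bcl6-YFP-high and CD69-high, and Fraction 3 (n = 3, named as under selection) was Bcl6-YFP-high and CD69-low. The CD38-positive, GL7-negative gates were Fraction 5 (n = 3, Bcl6-YFP-high and Efnb1-high, the study's pro-memory cells), Fraction 6 (n = 2, Bcl6-YFP-low and Efnb1-high, pre-memory) and Fraction 7 (n = 3, low for both, mature memory). Whether the libraries of a gate stem from different pools is not stated in the labels. The p-values therefore cover the spread among the libraries at hand, and that spread may be technical. In bulk libraries such as these, fewer cells of a type and less RNA per cell cannot be told apart.

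Chaperones bind unfolded chains and help them fold without becoming part of the product. The CCT ring folds actin, tubulin and other cytosolic proteins handed over by prefoldin, HSP60 with HSP10 folds proteins inside mitochondria, and HSP70 with its J-domain partners passes clients to HSP90 through adaptor proteins. Heat shock factors drive transcription of many of these genes when unfolded protein accumulates, and activated, growing lymphocytes are known to make more of several of them as protein synthesis increases.

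FPKM summed to between 416741 and 492578 per library, 10133 to 10552 genes reached 1 FPKM, and the steps between low values put the depth of each library at 0.917 times that of LZ library 1 or more, and at most 1.2 times. The absolute number of reads is unknown. The B cell markers Cd79a, Cd79b, Ms4a1, Pax5 and Cd22 were high in every library, from 657 FPKM upwards for Cd79a, 545 for Cd79b, 492 for Ms4a1, 137 for Pax5 and 327 for Cd22. Of 7 T cell markers, which summed to 7.04 to 36.9 FPKM, Lck carried most, and Cd3e, Cd3g and Cd4 stayed below 1 FPKM in every library. Cd28 reached 1.25 FPKM in Fraction 7 and at most 0.101 elsewhere. The 6 stromal markers summed to 56.4 to 123 FPKM, carried by Cr2 and Pecam1. Col1a1, Col3a1, Pdpn and Cxcl13 stayed below 1 FPKM throughout, so the sum is no measure of stromal cells. The 6 erythroid markers summed to 35.8 to 141 FPKM. The 5 germinal centre markers, Bcl6 and Efnb1 of the gating among them, summed to 628 to 743 FPKM in LZ. Their sum was 583 to 597 FPKM in Fraction 2, 728 to 852 in Fraction 3 and 714 to 753 in Fraction 5. It was 278 to 286 FPKM in Fraction 6 and 44.2 to 61.5 in Fraction 7, and the part of this shift in any result was not tested. Fraction 7 libraries 2 and 3 stood apart. They had the 2 lowest FPKM sums (416741 and 419401), and 16782 and 18234 genes above 0 FPKM, against at most 15152 in any other library. Igj was at 296 and 292 FPKM there against 46.9 in library 1, and Sdc1, which encodes the CD138 used to gate plasma cells out, was at 4.44 and 4.51 against 0.502. The 6 plasma cell markers summed to between 105 and 411 FPKM in Fraction 7 and to at most 218 FPKM elsewhere. Outside Fraction 7, Sdc1, Prdm1 and Tnfrsf17 stayed below 1 FPKM, and Igj, Xbp1 and Irf4 carried the sum. The 8 myeloid markers summed to between 15.6 and 45.8 FPKM in Fraction 7 and to at most 29.4 FPKM elsewhere. They were carried by S100a8 (up to 15.2 FPKM), S100a9 (13.4) and Itgam (12.8), with Cd14 and C1qa below 1 FPKM throughout. Lyz2 reached 5.70 FPKM, in a library outside Fraction 7, and Emr1 reached 2.46 in Fraction 7 and at most 1.41 elsewhere. The counts or changes of each Fraction 7 comparison are therefore also given without libraries 2 and 3, and the part of these RNAs in any result was not tested. That fit holds 1 library of Fraction 7, whose spread is taken from the other gates, so it has less power. Every background share given belongs to the full fit, and none is given for the fit without these libraries.

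Promoter sequences are shown for the HSP60 and HSP10 genes, which share 1 promoter, and for Dnajb6, Hspa1a and Hspa1b, which also hold heat shock elements but had a narrow range or stayed below 1 FPKM. They are RefSeq windows of build GRCm38.p6, not the mm9 build of the expression table, and cover the 160 bases before 1 annotated start of each gene. Capitals mark matches to heat shock elements, which are inverted repeats of GAA. The searched letters, on both strands, were GAANNTTC or TTCNNGAA for a 2-unit element, and both overlapping in that order (GAANNTTC followed by NNGAA) for a 3-unit element.
Hspe1, chr1:55087988-55088147, plus strand: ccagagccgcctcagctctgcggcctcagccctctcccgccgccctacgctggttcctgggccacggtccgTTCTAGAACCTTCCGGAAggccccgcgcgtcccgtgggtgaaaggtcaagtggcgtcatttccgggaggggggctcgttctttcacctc
Hspd1, chr1:55087933-55088092, minus strand: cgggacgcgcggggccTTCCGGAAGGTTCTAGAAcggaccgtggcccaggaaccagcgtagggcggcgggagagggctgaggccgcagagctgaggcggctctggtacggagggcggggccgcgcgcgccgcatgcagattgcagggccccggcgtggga
Dnajb6, chr5:29735738-29735897, plus strand: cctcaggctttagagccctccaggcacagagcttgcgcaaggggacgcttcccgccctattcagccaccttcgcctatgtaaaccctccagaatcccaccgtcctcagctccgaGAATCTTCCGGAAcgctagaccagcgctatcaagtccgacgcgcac
Hspa1a, chr17:34972157-34972316, minus strand: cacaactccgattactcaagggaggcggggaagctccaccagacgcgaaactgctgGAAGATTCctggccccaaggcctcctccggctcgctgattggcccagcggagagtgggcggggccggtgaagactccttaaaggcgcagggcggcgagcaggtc
Hspa1b, chr17:34959239-34959398, minus strand: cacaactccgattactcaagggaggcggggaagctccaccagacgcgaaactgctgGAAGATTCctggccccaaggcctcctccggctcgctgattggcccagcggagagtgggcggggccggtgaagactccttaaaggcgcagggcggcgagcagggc
Hspe1 and Hspd1 are transcribed away from each other, and 105 of the 160 genomic bases shown are the same DNA read from opposite strands. Their single run of repeats lies at -89 to -72 of the Hspe1 start and at -144 to -127 of the Hspd1 start shown. The window of another annotated Hspd1 start, not shown, held no match to these elements, and it held the Hspd1 E-box counted below. The Dnajb6 element lies at -46 to -34 of the start shown. Hspa1a and Hspa1b differed at 1 of the 160 positions and each held a 2-unit match at -104 to -97. Of 40 promoter windows found for 31 members, 6 held the 3-unit element (15.0%, from the 4 genes Dnajb6, Hspd1, Hspe1 and Hsph1), against 0.603% of 32851 windows of 300 bases in the whole table. The 6 windows are not independent, because Hspd1 with Hspe1, and the start sites of Dnajb6 and of Hsph1, overlap. GAANNTTC was in 30.0% of member windows against 7.86% of all, TTCNNGAA in 22.5% against 8.52%, and the E-box CACGTG in 12.5% against 7.15%, in Fkbp5, Hsf2, Hspd1 and Hsph1. A match describes these letters only.

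The pattern shared by most members was a maximum in Fraction 2 and a minimum in the CD38-positive gates. The mean was highest in Fraction 2 for 38 of the 40 members, 36 of them tested. The exceptions were Pfdn5, highest in Fraction 6, and Bag3, highest in Fraction 7. A highest mean does not mean separate gates: for Pfdn1, Dnajb1 and Hsf2, among others, the Fraction 2 and LZ libraries overlapped. The lowest mean was in Fraction 7 for 20 members, in Fraction 6 for 13 and in Fraction 5 for 5, and in Fraction 2 for Pfdn5 and in Fraction 3 for Bag3. Between the highest and lowest gate 28 of the 38 tested members differed by more than 2-fold. Neither the order of the gates nor this fold was counted over all tested genes, so these counts have no background share. Hspd1 had the widest fold among them (4.74), followed by Fkbp5 (4.30), Hsp90aa1 (4.22), Hspa9 (3.74), Hsph1 (3.66) and Cct6a (3.41). At the other end Dnajb6 differed by 1.40-fold, Hsf1 by 1.41-fold and Pfdn5 by 1.46-fold. All 38 differed among the 6 gates (limma F-test, adjusted over all tested genes), where 69.7% of all 11266 tested genes did. Bag3 is counted among them and among the members called higher in Fractions 2 and 7 below, although it passed the filter only through its values in those gates and so had to differ.

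**Figure D1:**
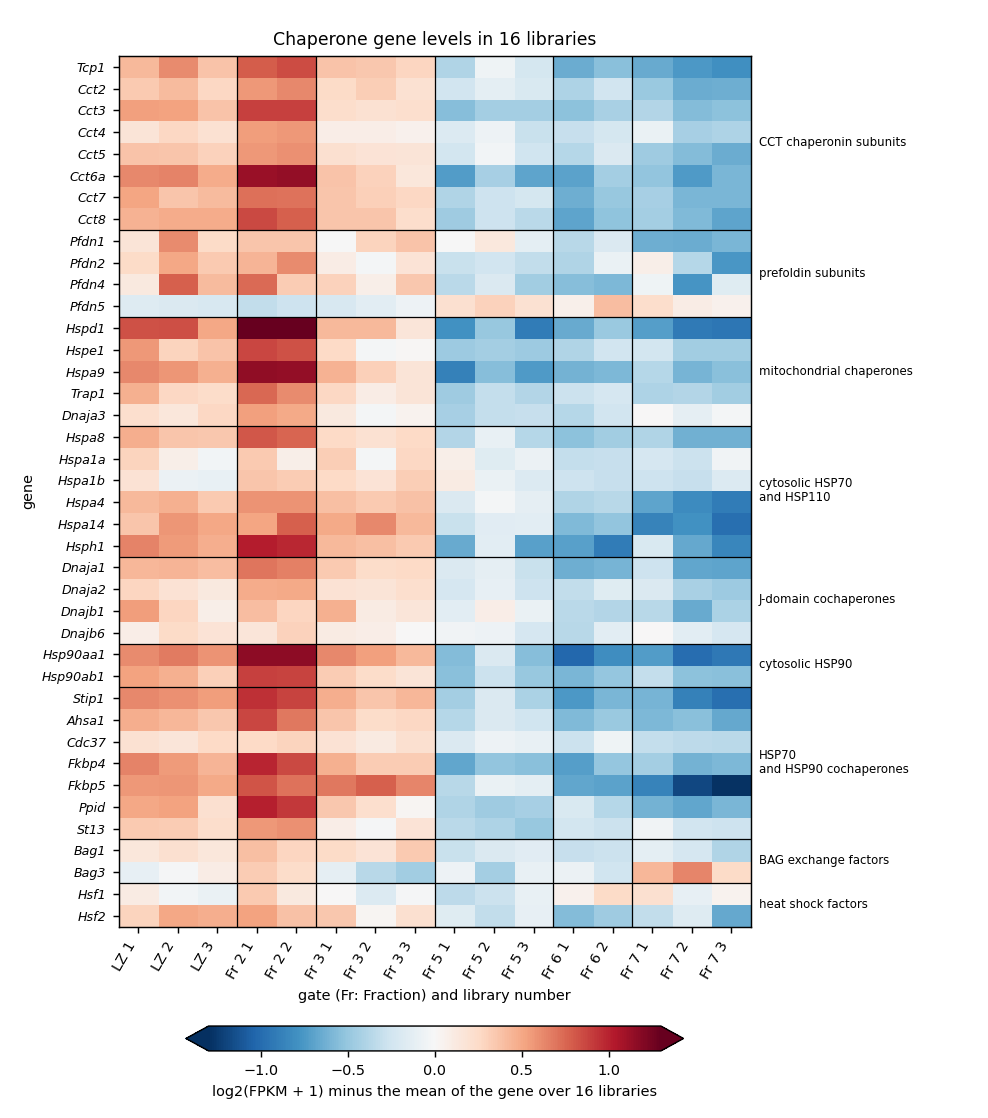
Heat map of 40 members (rows, by role list) in 16 libraries (columns, by gate), coloured by log2(FPKM + 1) minus the mean of the gene over the 16 libraries. The Fraction 2 columns are the darkest red for most genes, and Fractions 5, 6 and 7 are mostly blue. For Pfdn1, Pfdn2, Pfdn4, Dnajb1, Dnajb6, Hspa14, Hspa1a, Fkbp5, Bag1, Hsf1 and Hsf2, some library of another gate lay above a Fraction 2 library. Pfdn5 and Bag3 run against the rest. Hspa1a and Hspa1b are below 1 FPKM throughout, so their colours rest on very low values.

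Together the 40 members made up 1.06%, 1.05% and 0.978% of the FPKM sum in LZ, 1.33% and 1.31% in Fraction 2, and 1.00%, 0.952% and 0.897% in Fraction 3. The share was 0.657%, 0.724% and 0.650% in Fraction 5, 0.618% and 0.629% in Fraction 6, and 0.654%, 0.625% and 0.614% in Fraction 7. Fraction 2 lay above all other gates, and every light zone library lay above every CD38-positive library. Fractions 5, 6 and 7 lay close together, and Fractions 5 and 7 overlapped. Hspa8 and Hsp90ab1, the constitutive HSP70 and HSP90, alone carried 35.7% to 40.7% of the members' FPKM in the 16 libraries.

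**Figure D2:**
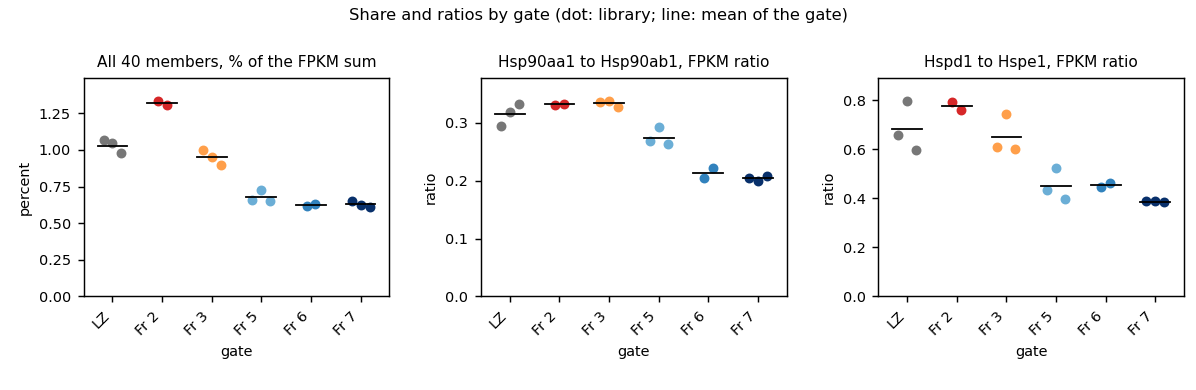
Per-library values by gate (dots) with the mean of the gate (line): the share of the 40 members in the FPKM sum in percent, and the FPKM ratios of Hsp90aa1 to Hsp90ab1 and of Hspd1 to Hspe1. Fraction 2 has the largest share (1.33% and 1.31%), and both ratios are lower in Fractions 5, 6 and 7 than in Fractions 2 and 3.

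Fraction 2 against Fraction 3 compares CD69-high with CD69-low light zone cells. Of the 38 tested members 25 rose in Fraction 2 (background 9.17% of all tested genes) and 0 fell (background 6.45%). A gene was called higher or lower when its p from limma, adjusted by the method of Benjamini and Hochberg over all 11266 tested genes, was below 0.05. The median change of the members was 0.47 on the log2(FPKM + 1) scale, which is the scale of every change given here and understates the change of low genes, and the median of all tested genes was 0.04. At an unadjusted p under 0.05, limma gave 28 higher and 0 lower. All 8 CCT subunits, all 5 mitochondrial chaperones and both HSP90 genes rose, with 2 of 4 HSP70 and HSP110 genes, 2 of 4 J-domain genes, 5 of 7 cochaperones and 1 of 2 BAG genes. No prefoldin subunit (0 of 4) and no heat shock factor (0 of 2) passed, with 1 of each at an unadjusted p under 0.05. The 2 gates did not overlap for 32 members (background 48.1%). The B cell markers Cd79a, Cd79b, Ms4a1, Pax5 and Cd22 were each lower in both Fraction 2 libraries than in any Fraction 3 library (Cd79a at 699.7 and 657 FPKM, against 831 to 1090.0). The plasma cell markers, carried here by Igj, Xbp1 and Irf4, summed to 165 to 167 FPKM against 198 to 218. The stromal markers, carried by Cr2 and Pecam1 alone, summed to 56.4 to 67.1 FPKM against 74.1 to 88.3. The part of these genes in the result was not tested. Tcp1, Cct2, Cct5, Hsph1, Dnaja1, Dnaja2, Stip1 and Bag3 lost the call when a Fraction 2 library was left out, Hsph1 and Dnaja2 also without any 1 library of Fraction 3, and Dnaja1 and Bag3 without Fraction 3 library 2 or 3.

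Fraction 5 against Fraction 3 compares pro-memory cells with light zone cells under selection. Here 31 members fell (background 19.5%) and 1 rose, the prefoldin subunit Pfdn5 (background 9.99%). The members' median change was -0.54 against -0.03 for all tested genes. CCT fell in 8 of 8, mitochondrial chaperones in 5 of 5, HSP70 and HSP110 in 4 of 4, HSP90 in 2 of 2 and cochaperones in 7 of 7. Prefoldin had 1 of 4 lower, the J-domain genes 2 of 4, the BAG genes 1 of 2 and the heat shock factors 1 of 2. For 35 members the gates did not overlap (background 44.1%). The plasma cell markers, again carried by Igj, Xbp1 and Irf4, summed to 134 to 156 FPKM in Fraction 5 against 198 to 218 in Fraction 3. The stromal markers, again Cr2 and Pecam1, summed to 103 to 113 FPKM against 74.1 to 88.3. Cd79a, Cd79b, Pax5 and Cd22 were each higher in every Fraction 5 library than in any Fraction 3 library (Cd79a at 1219 to 1359 FPKM, against 831 to 1090.0), while Ms4a1 overlapped, and the part of these genes in the result was not tested. Quantile normalization gave 28 lower and 1 higher, with 7 of 8 CCT subunits and 0 of 4 prefoldin subunits lower. The call of Cct4 was lost without Fraction 5 library 3, that of Pfdn4 without library 1 or 3 of either gate, and that of Hsf2 without Fraction 3 library 1 or 3 or any 1 library of Fraction 5. Every comparison with Fraction 3, 5 or 7 shares libraries with another, so they are not independent of each other.

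Set against Fraction 2 instead, Fraction 5 had 37 members lower (background 27.1%) and only Pfdn5 higher (background 16.6%), with a median of -0.91 against -0.04 for all tested genes. The gates did not overlap for any of the 38 (background 62.5%). The 4 largest falls were those of Hspd1 (-2.09), Hspa9 (-1.87), Cct6a (-1.74) and Hsp90aa1 (-1.60). Pfdn1, Pfdn4, Dnajb1, Dnajb6, Bag3 and Hsf1 lost the call without 1 of the Fraction 2 libraries.

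Within the CD38-positive gates the changes were smaller and less stable. Fraction 6 against Fraction 5, pre-memory against pro-memory, had 9 members lower (background 10.4%) and Hsf1 higher (background 7.07%), with a median of -0.11 against -0.00 for all tested genes and 22 members without overlap (background 47.9%). Quantile normalization gave 7 lower and 2 higher. The 9 were Tcp1, Cct7, Hspa4, Hspa14, Dnaja1, Hsp90aa1, Stip1, Ahsa1 and Fkbp5. None of the 10 calls held in every fit that left out 1 library. Leaving out library 1 of Fraction 6 gave 0 lower members, and library 2 gave 3. Leaving out library 2 of Fraction 5 gave 2 lower members, and library 3 gave 5. Hsf1 was lost without either Fraction 6 library and without Fraction 5 library 1 or 2.

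Fraction 7 against Fraction 6, mature memory against pre-memory, had 6 members lower (background 13.9%) and 2 higher (background 7.37%), with 13 free of overlap (background 46.4%). Cct2, Cct5, Hspa4, Hspa14, Fkbp5 and Ppid were lower, and Dnaja3 and Bag3 higher. The members' median was -0.06 against -0.05 for all tested genes, and it turned to 0.04 under quantile normalization and to 0.02 under median-ratio scaling, as did the medians of CCT, mitochondrial and J-domain genes. Quantile normalization gave 2 lower and 2 higher. Only Hspa4 held its call in every fit that left out 1 library. Leaving out library 2 of Fraction 6 gave 1 lower and 0 higher members. Leaving out library 2 or 3 of Fraction 7 gave 2 or 1 lower, and the higher count was 1 without Fraction 6 library 1 or any 1 library of Fraction 7. Without libraries 2 and 3 of Fraction 7 together, Hspa4 stayed lower and Dnaja1 was higher (0.35).

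Fraction 7 against LZ compares mature memory cells with the light zone as a whole. It had 35 members lower (background 38.0%) and 2 higher, Pfdn5 and Bag3 (background 24.1%). The members' median was -0.93 against -0.10 for all tested genes, and 37 members did not overlap (background 64.4%). Quantile normalization moved the all-gene median to 0.02 and that of the members to -0.60, and median-ratio scaling moved them to 0.04 and -0.77. Hsf1 had no call (0.06). Under quantile normalization 30 members were lower, no BAG gene was called and 1 heat shock factor, Hsf1, was called higher. Without Fraction 7 libraries 2 and 3, 31 members were lower and 1 higher. Pfdn2, Pfdn4, Dnaja3, Dnajb6 and Bag3 then had no call, and Bag3 alone lost its call on leaving out 1 library (Fraction 7 library 2 or LZ library 1).

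A comparison added after the data were seen, Fraction 7 against Fraction 5, gave the change from pro-memory to mature memory in a single step. It had 16 members lower (background 28.5%) and 4 higher (background 19.1%), with 18 free of overlap (background 53.7%) and a median of -0.15 against -0.05 for all tested genes. The 4 were Dnaja3, St13, Bag3 and Hsf1. Direction here leaned on the scaling: the members' median was 0.02 under quantile normalization and -0.05 under median-ratio scaling, and quantile normalization gave 11 lower and 9 higher. Without Fraction 7 libraries 2 and 3, which leaves 1 library of that gate, the changes of the 16 stayed negative, from -0.68 (Fkbp5) to -0.07 (Dnaja1). Some were then small, such as Cct8 (-0.08) and Hspa8 (-0.10), so the shared sign does not mean that the calls hold. Those of Dnaja3, St13, Bag3 and Hsf1 stayed positive, from 0.36 (Dnaja3) to 0.63 (Bag3). The higher count was 2 without Fraction 7 library 1. Cct8, Hspa8, Dnajb1, St13 and Hsf1 each lost the call in at least 1 fit that left out 1 library of either gate.

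**Figure D3:**
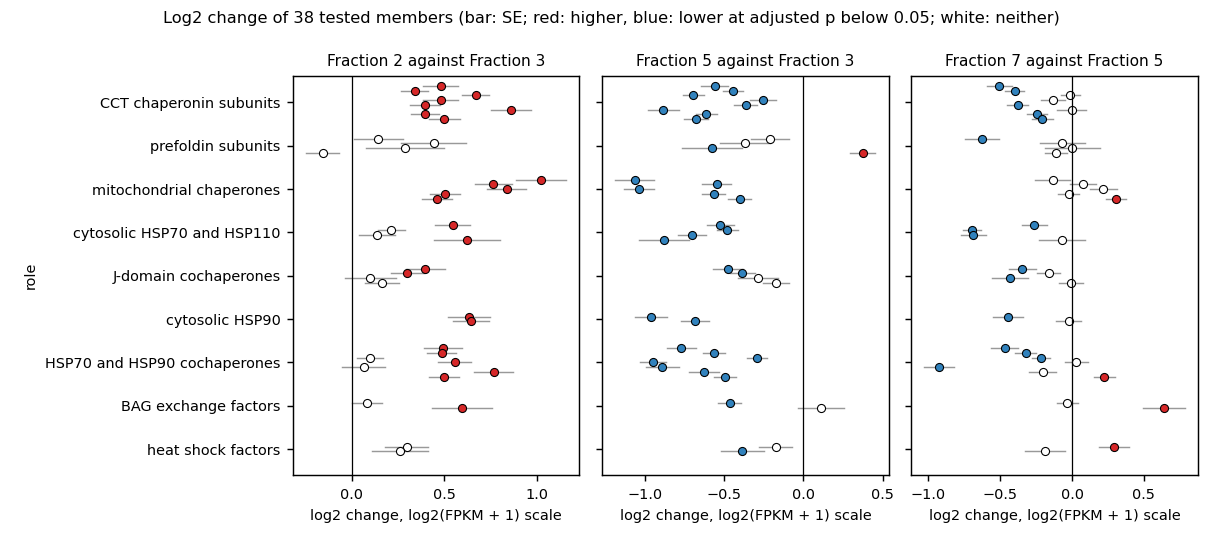
Change of each of the 38 tested members on the log2(FPKM + 1) scale (points, with the SE as a bar), by role list, in 3 comparisons. Red and blue mark members higher and lower at an adjusted p below 0.05 and white those with neither: 25 red in the first panel, 31 blue and 1 red in the second, 16 blue and 4 red in the third.

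The CCT chaperonin is a double ring of 8 different subunits, each from its own gene. Their summed level was 1082, 1112 and 1033 FPKM in LZ, 1349 and 1363 in Fraction 2, and 980.1, 974 and 931 in Fraction 3. The sum was 633, 719.6 and 657 FPKM in Fraction 5, 575 and 636 in Fraction 6, and 604, 535 and 529 in Fraction 7. All 8 rose in Fraction 2 over Fraction 3 and all 8 fell in Fraction 5, with medians of 0.48 and -0.59. Cct6a had the widest range of the ring. Cct6a was at 93.6, 95.5 and 84.8 FPKM in LZ, 133 and 135 in Fraction 2, and 78.7, 74.6 and 67.0 in Fraction 3. Cct6a levels were 36.2, 44.8 and 37.4 FPKM in Fraction 5, 36.9 and 44.4 in Fraction 6, and 42.2, 35.8 and 39.8 in Fraction 7. Fraction 2 lay at the top, and the 3 CD38-positive gates overlapped each other at the bottom. The change was 0.86 ± 0.11 (SE, adjusted p = 0.000649) in Fraction 2 over Fraction 3 and -0.88 ± 0.10 (SE, adjusted p = 3.46e-05) in Fraction 5. Its change from Fraction 5 to Fraction 7 was -0.00, with no call.

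Tcp1 was at 135, 155 and 131 FPKM in LZ, 174 and 181 in Fraction 2, and 130.3, 129 and 122 in Fraction 3. Tcp1 levels were 76.4, 96.8 and 85.7 FPKM in Fraction 5, 64.1 and 68.9 in Fraction 6, and 63.6, 59.7 and 57.6 in Fraction 7. For Tcp1, the alpha subunit, no pair of gates compared overlapped, and Fraction 7 was the lowest. Its change was -0.56 ± 0.09 (SE, adjusted p = 0.000313) in Fraction 5 against Fraction 3 and -0.50 ± 0.09 (SE, adjusted p = 0.000245) in Fraction 7 against Fraction 5. Cct8 was at 118, 120.2 and 120.3 FPKM in LZ, 156 and 147 in Fraction 2, and 111, 111 and 101 in Fraction 3. Cct8 levels were 61.9, 71.1 and 67.4 FPKM in Fraction 5, 53.2 and 59.4 in Fraction 6, and 62.9, 57.6 and 52.9 in Fraction 7. Cct8, the theta subunit, was highest in Fraction 2, and Fraction 7 overlapped Fractions 5 and 6. It was lower in Fraction 5 than in Fraction 3 (-0.68 ± 0.07 SE, adjusted p = 3.46e-05) and in Fraction 7 than in Fraction 5 (-0.21 ± 0.07 SE, adjusted p = 0.0356), a call lost without library 2 or 3 of either gate. Of the other 5 subunits, Cct2, Cct5 and Cct7 also fell from Fraction 5 to Fraction 7 (-0.40, -0.38 and -0.24), while Cct3 (-0.01) and Cct4 (-0.13) had no call. Without Fraction 7 libraries 2 and 3, Cct7 stood at -0.14 (adjusted p = 0.279) and Cct8 at -0.08 (adjusted p = 0.541) in this comparison. Cct4 had the smallest fall of the ring in Fraction 5 (-0.25). Quantile normalization left 7 of 8 subunits lower in Fraction 5 than in Fraction 3, and 3 lower and 1 higher in Fraction 7 than in Fraction 5.

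The RNA levels of the subunits also differed from each other. FPKM is per length, but that alone does not make levels of different genes comparable, so the spread among subunits is uncertain as a level. The highest subunit, Cct5 or Cct2, exceeded the lowest, Cct6a or Cct7, by 2.07 to 2.18-fold in LZ, 1.93 and 1.98-fold in Fraction 2 and 2.21 to 2.52-fold in Fraction 3. The spread was 3.27 to 3.49-fold in Fraction 5, 2.96 and 3.14-fold in Fraction 6 and 2.40 to 2.83-fold in Fraction 7. Cct7 was lowest in both Fraction 2 libraries and in LZ library 2, and Cct6a in all others. This spread was looked at after the values were seen, and no test of it was made.

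Prefoldin, the holdase that hands actin and tubulin chains to CCT, had 4 listed subunits. Pfdn1 was at 26.7, 36.5 and 28.1 FPKM in LZ, 30.6 and 30.5 in Fraction 2, and 23.4, 29.0 and 30.7 in Fraction 3. Pfdn1 levels were 23.6, 26.1 and 21.5 FPKM in Fraction 5, 18.2 and 20.7 in Fraction 6, and 14.9, 14.8 and 15.3 in Fraction 7. Pfdn1 overlapped between Fraction 3 and both Fraction 2 and Fraction 5, and was lowest in Fraction 7. It had no call in Fraction 5 against Fraction 3 (-0.21), and was lower in Fraction 7 than in Fraction 5, with a change of -0.62 ± 0.12 (SE, adjusted p = 0.000677). Pfdn2 was at 57.6, 68.9 and 61.4 FPKM in LZ, 65.7 and 74.1 in Fraction 2, and 51.7, 47.3 and 54.5 in Fraction 3. Pfdn2 levels were 39.1, 40.5 and 38.5 FPKM in Fraction 5, 36.6 and 45.3 in Fraction 6, and 50.8, 36.9 and 28.1 in Fraction 7. Fraction 7 spread widely for Pfdn2, from 50.8 FPKM in library 1 to 28.1 in library 3. Pfdn2 passed in Fraction 5 against Fraction 2 (-0.81) and in Fraction 7 against LZ (-0.72, and -0.29 (adjusted p = 0.0862) without Fraction 7 libraries 2 and 3). Pfdn4 was at 17.3, 27.5 and 21.1 FPKM in LZ, 26.8 and 19.9 in Fraction 2, and 19.5, 16.6 and 20.3 in Fraction 3. Pfdn4 levels were 12.1, 13.6 and 11.2 FPKM in Fraction 5, 10.4 and 10.2 in Fraction 6, and 15.0, 8.80 and 13.9 in Fraction 7. The Pfdn4 libraries of LZ, Fraction 2 and Fraction 7 were widely spread. Pfdn4 was lower in Fraction 5 than in Fraction 3 (-0.57 ± 0.19 SE, adjusted p = 0.0359), with the losses of the call named above.

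Pfdn5, also known as the Myc-binding protein MM1, ran the other way. Pfdn5 was at 183, 181 and 178 FPKM in LZ, 165 and 170.5 in Fraction 2, and 178, 187 and 196 in Fraction 3. Pfdn5 levels were 238, 254 and 237 FPKM in Fraction 5, 215 and 273 in Fraction 6, and 241, 219 and 214 in Fraction 7. Every Fraction 5, 6 and 7 library lay above every light zone library. The change was 0.38 ± 0.08 (SE, adjusted p = 0.00318) in Fraction 5 against Fraction 3, 0.53 ± 0.09 (SE, adjusted p = 0.000292) against Fraction 2, and 0.31 ± 0.08 (SE, adjusted p = 0.00375) in Fraction 7 against LZ. Without Fraction 7 libraries 2 and 3 the last was 0.41 (adjusted p = 0.00925). Under quantile normalization and median-ratio scaling the prefoldin list kept 1 higher member in each of these comparisons.

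The mitochondrial chaperones had the largest median rise of the 9 lists in Fraction 2 over Fraction 3, 0.76 on the log2 scale. Quantile normalization and median-ratio scaling left all 5 higher there and all 5 lower in Fraction 5 than in Fraction 3. Hspd1 encodes HSP60, the mitochondrial chaperonin. Hspd1 was at 128, 128 and 102 FPKM in LZ, 192 and 178 in Fraction 2, and 96.2, 96.0 and 79.8 in Fraction 3. Hspd1 levels were 41.0, 50.4 and 37.6 FPKM in Fraction 5, 44.9 and 50.9 in Fraction 6, and 43.0, 37.1 and 36.6 in Fraction 7. Both Fraction 2 libraries lay above all others, the light zone gates lay above the CD38-positive gates, and Fraction 5 overlapped Fractions 6 and 7. Its change was 1.02 ± 0.14 (SE, adjusted p = 0.000776) in Fraction 2 over Fraction 3, -1.06 ± 0.12 (SE, adjusted p = 4.03e-05) in Fraction 5 against Fraction 3 and -1.59 ± 0.12 (SE, adjusted p = 7.79e-08) in Fraction 7 against LZ. Hspe1 encodes HSP10, the lid of the HSP60 barrel, from the same promoter. Hspe1 was at 195, 161 and 170.4 FPKM in LZ, 241 and 234 in Fraction 2, and 158, 129 and 133 in Fraction 3. Hspe1 levels were 94.3, 96.6 and 94.5 FPKM in Fraction 5, 100.3 and 110.4 in Fraction 6, and 111, 95.6 and 95.6 in Fraction 7. Hspe1 was also highest in Fraction 2 and lower in every CD38-positive library than in any light zone library. Its steps were 0.76 ± 0.10 (SE, adjusted p = 0.000732) in Fraction 2 over Fraction 3 and -0.55 ± 0.09 (SE, adjusted p = 0.000556) in Fraction 5 against Fraction 3.

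The ratio of Hspd1 to Hspe1 FPKM was 0.656, 0.795 and 0.597 in LZ, 0.794 and 0.760 in Fraction 2, and 0.609, 0.742 and 0.601 in Fraction 3. It was 0.435, 0.522 and 0.397 in Fraction 5, 0.447 and 0.461 in Fraction 6, and 0.388, 0.389 and 0.383 in Fraction 7. Every light zone library was above every CD38-positive library. The mean difference of Fraction 5 from Fraction 3 was -0.199, with an exact two-sided permutation p of 0.1, the smallest that 3 against 3 libraries allow (adjusted over 6 such tests on ratios and shares, 0.12). Both genes have pseudogene copies that can take or give reads, so the ratio is uncertain as a level.

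Hspa9 encodes mortalin, the HSP70 of the mitochondrial matrix and of protein import. Hspa9 was at 73.3, 71.1 and 65.8 FPKM in LZ, 107 and 106 in Fraction 2, and 65.2, 58.9 and 53.4 in Fraction 3. Hspa9 levels were 25.2, 32.0 and 28.0 FPKM in Fraction 5, 30.5 and 31.2 in Fraction 6, and 36.4, 30.7 and 32.2 in Fraction 7. Its Fraction 2 libraries were the highest and its 3 CD38-positive gates overlapped. The change was 0.84 ± 0.10 (SE, adjusted p = 0.000619) in Fraction 2 over Fraction 3 and -1.03 ± 0.09 (SE, adjusted p = 8.81e-06) in Fraction 5 against Fraction 3, and 0.22 with no call in Fraction 7 against Fraction 5. Trap1, the mitochondrial HSP90, lay between 24.8 and 59.0 FPKM over the 16 libraries and changed by 0.50 in Fraction 2 over Fraction 3 and by -0.57 in Fraction 5 against Fraction 3. Dnaja3 was at 13.3, 12.6 and 13.9 FPKM in LZ, 16.8 and 16.3 in Fraction 2, and 12.5, 11.1 and 11.8 in Fraction 3. Dnaja3 levels were 8.11, 8.92 and 9.00 FPKM in Fraction 5, 8.54 and 9.37 in Fraction 6, and 11.4, 10.4 and 11.1 in Fraction 7. Dnaja3, the J-domain partner of mortalin, was lower in Fraction 5 than in Fraction 3 (-0.40 ± 0.07 SE, adjusted p = 0.000979) and higher in Fraction 7 than in Fraction 5 (0.31 ± 0.07 SE, adjusted p = 0.00304), with no overlap in either. Quantile normalization called 3 of the 5 mitochondrial genes higher in Fraction 7 than in Fraction 5 in place of Dnaja3 alone. Without libraries 2 and 3 of Fraction 7 the second change of Dnaja3 was 0.36 (adjusted p = 0.0174).

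**Figure D4:**
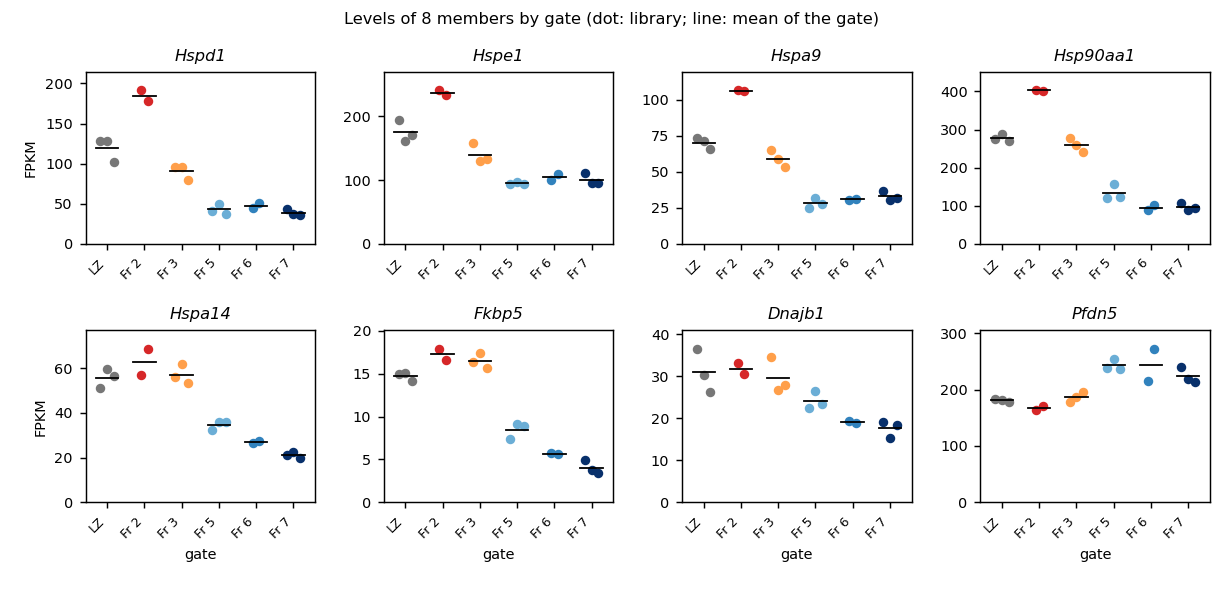
FPKM of 8 members by gate (dots are libraries, lines are means, linear axes from 0). Hspd1, Hspe1, Hspa9 and Hsp90aa1 peak in Fraction 2, and Hsp90aa1 alone of these is lower in both Fractions 6 and 7 than in Fraction 5 without overlap, Hspa14 and Fkbp5 overlap between Fractions 2 and 3 and are lowest in Fraction 7, Dnajb1 overlaps between the light zone gates, and Pfdn5 is highest in Fractions 5 to 7.

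Among the cytosolic HSP70 and HSP110 genes, Hspa8, the constitutive HSC70, was the most abundant member of all, at 527 to 1427 FPKM. It rose in Fraction 2 over Fraction 3 (0.54) and fell in Fraction 5 (-0.52). Hspa4, an HSP110-type exchange factor that recharges HSP70, showed a different course. Hspa4 was at 99.1, 102 and 93.5 FPKM in LZ, 111 and 111 in Fraction 2, and 96.7, 93.4 and 96.2 in Fraction 3. Hspa4 levels were 64.3, 72.4 and 68.0 FPKM in Fraction 5, 56.0 and 57.1 in Fraction 6, and 45.4, 41.3 and 38.6 in Fraction 7. No neighbouring gates of Hspa4 from Fraction 3 to Fraction 7 overlapped. It had no call in Fraction 2 over Fraction 3 (0.21 ± 0.07 SE, adjusted p = 0.0649), fell in Fraction 5 (-0.48 ± 0.07 SE, adjusted p = 0.000135), and was lower at both later steps, with -0.27 ± 0.07 (SE, adjusted p = 0.0213) in Fraction 6 against Fraction 5, a call lost without Fraction 5 library 2 or either Fraction 6 library, and -0.43 ± 0.07 (SE, adjusted p = 0.000806) in Fraction 7 against Fraction 6. The last of these was -0.31 (adjusted p = 0.0287) without Fraction 7 libraries 2 and 3. Hspa14 was at 51.3, 59.6 and 56.7 FPKM in LZ, 57.2 and 68.9 in Fraction 2, and 56.2, 61.9 and 53.4 in Fraction 3. Hspa14 levels were 32.4, 35.8 and 36.1 FPKM in Fraction 5, 26.4 and 27.6 in Fraction 6, and 21.4, 22.6 and 19.7 in Fraction 7. Hspa14, an HSP70 relative that acts on nascent chains at the ribosome, was also lower in each gate from Fraction 5 on without overlap. It measured 0.13 ± 0.10 (SE, adjusted p = 0.389) in Fraction 2 over Fraction 3, with overlap and no call, -0.70 ± 0.09 (SE, adjusted p = 7.19e-05) in Fraction 5 against Fraction 3 and -0.69 ± 0.09 (SE, adjusted p = 1.99e-05) in Fraction 7 against Fraction 5.

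Hsph1 was at 43.5, 40.7 and 38.7 FPKM in LZ, 57.0 and 55.3 in Fraction 2, and 37.1, 36.4 and 35.0 in Fraction 3. Hsph1 levels were 17.2, 24.9 and 16.5 FPKM in Fraction 5, 16.4 and 14.2 in Fraction 6, and 23.9, 17.0 and 14.8 in Fraction 7. Hsph1, the heat-inducible HSP110, had a wide spread in Fractions 5 and 7, where library 2 of Fraction 5 and library 1 of Fraction 7 were the highest. It rose in Fraction 2 (0.62 ± 0.18 SE, adjusted p = 0.0317) and fell in Fraction 5 against Fraction 3 (-0.88 ± 0.16 SE, adjusted p = 0.00109). Hspa1a and Hspa1b, the classic stress-induced HSP70 pair, were almost silent. Hspa1a was at 0.742, 0.506 and 0.393 FPKM in LZ, 0.804 and 0.502 in Fraction 2, and 0.784, 0.405 and 0.715 in Fraction 3. Hspa1a levels were 0.50, 0.281 and 0.357 FPKM in Fraction 5, 0.150 and 0.156 in Fraction 6, and 0.223, 0.174 and 0.379 in Fraction 7. Hspa1b was at 0.712, 0.420 and 0.404 FPKM in LZ, 0.931 and 0.881 in Fraction 2, and 0.793, 0.695 and 0.877 in Fraction 3. Hspa1b levels were 0.622, 0.416 and 0.327 FPKM in Fraction 5, 0.246 and 0.222 in Fraction 6, and 0.248, 0.223 and 0.329 in Fraction 7. Neither reached 1 FPKM in any of the 16 libraries, so neither was tested. Their coding and promoter sequences are nearly identical, so reads can be split between them in an arbitrary way.

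The J-domain cochaperones stimulate the ATPase of HSP70. Dnaja1 was at 47.7, 48.2 and 46.7 FPKM in LZ, 57.5 and 55.9 in Fraction 2, and 44.7, 41.8 and 42.1 in Fraction 3. Dnaja1 levels were 30.8, 32.3 and 28.5 FPKM in Fraction 5, 22.3 and 22.9 in Fraction 6, and 29.0, 21.6 and 21.4 in Fraction 7. Dnaja1, a partner of HSC70 in refolding, was highest in Fraction 2, and library 1 of Fraction 7 lay among the Fraction 5 libraries, above libraries 2 and 3. Its change was 0.40 ± 0.11 (SE, adjusted p = 0.0231) in Fraction 2 over Fraction 3, -0.48 ± 0.09 (SE, adjusted p = 0.00197) in Fraction 5 against Fraction 3 and -0.35 ± 0.09 (SE, adjusted p = 0.00797) in Fraction 7 against Fraction 5, where it was -0.07 (adjusted p = 0.551) without Fraction 7 libraries 2 and 3. Dnaja2 was at 53.1, 49.8 and 47.7 FPKM in LZ, 61.3 and 61.7 in Fraction 2, and 49.7, 49.0 and 50.8 in Fraction 3. Dnaja2 levels were 37.3, 40.4 and 36.0 FPKM in Fraction 5, 34.6 and 39.1 in Fraction 6, and 38.2, 32.3 and 31.0 in Fraction 7. Dnaja2, a close relative, was also highest in Fraction 2, and its 3 CD38-positive gates overlapped. It fell in Fraction 5 against Fraction 3 (-0.39 ± 0.08 SE, adjusted p = 0.00258). Dnajb1, the heat-inducible HSP40, overlapped between LZ, Fraction 2 and Fraction 3. Dnajb1 was at 36.6, 30.4 and 26.3 FPKM in LZ, 33.0 and 30.4 in Fraction 2, and 34.5, 26.7 and 27.8 in Fraction 3. Dnajb1 levels were 22.5, 26.4 and 23.4 FPKM in Fraction 5, 19.3 and 18.8 in Fraction 6, and 19.1, 15.3 and 18.4 in Fraction 7. It had no call in Fraction 2 over Fraction 3 (0.10) or in Fraction 5 against Fraction 3 (-0.28), and was lower in Fraction 7 than in LZ (-0.78 ± 0.12 SE, adjusted p = 9.19e-05). Dnajb6, a suppressor of aggregation whose promoter is shown above, stayed between 31.5 and 50.2 FPKM. It passed only in Fraction 5 against Fraction 2 (-0.34) and in Fraction 7 against LZ (-0.29, and -0.17 (adjusted p = 0.229) without Fraction 7 libraries 2 and 3).

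Cytosolic HSP90 matures kinases, receptors and other signalling clients. Hsp90ab1, its constitutive form, was second in abundance to Hspa8. Hsp90ab1 was at 939, 899.6 and 811 FPKM in LZ, 1216 and 1209 in Fraction 2, and 823, 772 and 738 in Fraction 3. Hsp90ab1 levels were 450.5, 539 and 464 FPKM in Fraction 5, 432 and 463 in Fraction 6, and 529, 452 and 449 in Fraction 7. Light zone libraries lay at or above 738 FPKM and CD38-positive libraries at or below 539. Hsp90aa1 was at 276, 287 and 269 FPKM in LZ, 403 and 402 in Fraction 2, and 277, 260.2 and 241 in Fraction 3. Hsp90aa1 levels were 121, 158 and 122 FPKM in Fraction 5, 88.3 and 103 in Fraction 6, and 108, 89.9 and 93.9 in Fraction 7. Hsp90aa1, the inducible form, peaked in Fraction 2 and was lowest in Fractions 6 and 7, which overlapped. In Fraction 2 over Fraction 3 both rose, with changes of 0.63 ± 0.11 (SE, adjusted p = 0.00327) for Hsp90aa1 and 0.64 ± 0.10 (SE, adjusted p = 0.00151) for Hsp90ab1. In Fraction 5 against Fraction 3 the changes were -0.96 ± 0.10 (SE, adjusted p = 2.58e-05) and -0.68 ± 0.09 (SE, adjusted p = 8.47e-05). In Fraction 7 against Fraction 5 they were -0.45 ± 0.10 (SE, adjusted p = 0.00262) and -0.02 ± 0.09 (SE, adjusted p = 0.851). Of these 2 genes, 0 were lower in Fraction 7 than in Fraction 5 under quantile normalization and 1 under median-ratio scaling. Without Fraction 7 libraries 2 and 3, Hsp90aa1 stood at -0.29 (adjusted p = 0.136) in the last comparison.

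The ratio of Hsp90aa1 to Hsp90ab1 FPKM overlapped among the light zone gates, and between Fractions 6 and 7, with Fraction 5 in between. It was 0.294, 0.319 and 0.332 in LZ, 0.332 and 0.333 in Fraction 2, and 0.337, 0.337 and 0.327 in Fraction 3. It was 0.268, 0.292 and 0.263 in Fraction 5, 0.204 and 0.221 in Fraction 6, and 0.204, 0.199 and 0.209 in Fraction 7. Every Fraction 5 library lay below every light zone library and above every library of Fractions 6 and 7. The gap to the light zone was narrow, with Fraction 5 library 2 at 0.292 and LZ library 1 at 0.294. The mean difference was -0.0592 between Fractions 5 and 3 and -0.0707 between Fractions 7 and 5, each with an exact two-sided permutation p of 0.1 (adjusted 0.12 over the 6 tests), the smallest this design allows. A ratio within a library does not depend on the scaling between libraries. Hsp90ab1 has pseudogene copies, which can shift its level.

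The list of adaptors and regulators of HSP70 and HSP90 held 7 genes, and its median change was 0.49 in Fraction 2 over Fraction 3 and -0.63 in Fraction 5 against Fraction 3. Stip1 was at 114, 111 and 107 FPKM in LZ, 143 and 136 in Fraction 2, and 102, 94.5 and 99.6 in Fraction 3. Stip1 levels were 54.0, 64.1 and 54.8 FPKM in Fraction 5, 43.3 and 48.2 in Fraction 6, and 48.0, 39.6 and 36.8 in Fraction 7. Stip1 (HOP), which bridges HSP70 and HSP90, was highest in Fraction 2, and Fractions 6 and 7 overlapped at the bottom. It changed by -0.77 ± 0.09 (SE, adjusted p = 5.39e-05) in Fraction 5 against Fraction 3 and by -0.47 ± 0.09 (SE, adjusted p = 0.000819) in Fraction 7 against Fraction 5, the latter -0.26 (adjusted p = 0.0765) without Fraction 7 libraries 2 and 3. Ppid was at 42.2, 42.8 and 34.3 FPKM in LZ, 60.8 and 56.7 in Fraction 2, and 37.9, 34.5 and 30.2 in Fraction 3. Ppid levels were 22.4, 21.2 and 21.6 FPKM in Fraction 5, 25.6 and 22.6 in Fraction 6, and 18.9, 18.1 and 19.2 in Fraction 7. Ppid, an HSP90-bound cyclophilin, overlapped between no pair of gates compared. It had the largest rise of the list in Fraction 2 over Fraction 3 (0.77 ± 0.11 SE, adjusted p = 0.00095) and fell in Fraction 5 (-0.63 ± 0.09 SE, adjusted p = 0.000297). Ahsa1, which speeds the HSP90 ATPase, Fkbp4, an HSP90-bound immunophilin, and St13, the HSP70-interacting protein HIP, rose in Fraction 2 over Fraction 3 (0.49, 0.56 and 0.50) and fell in Fraction 5 against Fraction 3 (-0.57, -0.95 and -0.49). St13 then was higher in Fraction 7 than in Fraction 5 (0.23 ± 0.07 SE, adjusted p = 0.0201), a call lost without Fraction 5 library 3. Cdc37, which loads kinases onto HSP90, had no call in Fraction 2 over Fraction 3 (0.10) and a small fall in Fraction 5 (-0.29).

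Fkbp5, the FK506-binding partner of steroid receptor complexes and a glucocorticoid-responsive gene, had the widest range of the list. Fkbp5 was at 14.9, 15.0 and 14.1 FPKM in LZ, 17.9 and 16.6 in Fraction 2, and 16.3, 17.4 and 15.7 in Fraction 3. Fkbp5 levels were 7.37, 9.14 and 8.84 FPKM in Fraction 5, 5.72 and 5.61 in Fraction 6, and 4.89, 3.72 and 3.42 in Fraction 7. Fractions 2 and 3 overlapped, and each later gate lay below the gate before it. Fkbp5 changed by 0.06 ± 0.12 (SE, adjusted p = 0.764) in Fraction 2 over Fraction 3, with no call, by -0.89 ± 0.10 (SE, adjusted p = 4.86e-05) in Fraction 5 against Fraction 3, by -0.50 ± 0.12 (SE, adjusted p = 0.00891) in Fraction 6 against Fraction 5 and by -0.42 ± 0.12 (SE, adjusted p = 0.0194) in Fraction 7 against Fraction 6. The last 2 steps lost their calls without either Fraction 6 library, and the last also without Fraction 7 library 2 or 3. In Fraction 7 against LZ it had the largest fall of the members, -1.66 ± 0.10 (SE, adjusted p = 1.09e-08), and -1.41 (adjusted p = 1.69e-06) without Fraction 7 libraries 2 and 3.

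BAG proteins release ADP from HSP70. Bag1 was at 59.4, 61.8 and 59.3 FPKM in LZ, 70.5 and 65.2 in Fraction 2, and 63.6, 60.6 and 67.9 in Fraction 3. Bag1 levels were 43.5, 46.7 and 48.1 FPKM in Fraction 5, 43.1 and 43.9 in Fraction 6, and 48.9, 46.0 and 40.6 in Fraction 7. Bag1, which also binds Bcl2, overlapped between Fractions 2 and 3 and among Fractions 5, 6 and 7. It had no call in Fraction 2 over Fraction 3 (0.08) and fell in Fraction 5 (-0.46 ± 0.07 SE, adjusted p = 0.000359). Bag3, the stress-induced member that routes clients to autophagy, was near the floor. Bag3 was at 0.733, 0.837 and 0.988 FPKM in LZ, 1.34 and 1.19 in Fraction 2, and 0.715, 0.445 and 0.360 in Fraction 3. Bag3 levels were 0.781, 0.372 and 0.744 FPKM in Fraction 5, 0.767 and 0.557 in Fraction 6, and 1.51, 1.89 and 1.21 in Fraction 7. It reached 1 FPKM in 5 of 16 libraries, all of Fractions 2 and 7, and entered the tests only through those gates, so it had to differ. Its change was 0.59 in Fraction 2 over Fraction 3 and 0.64 in Fraction 7 against Fraction 5, given as a description.

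The heat shock factors, the transcription factors of the pathway, had a narrow range or a low level. Hsf1 was at 21.8, 19.7 and 19.0 FPKM in LZ, 25.9 and 22.1 in Fraction 2, and 20.3, 17.7 and 19.9 in Fraction 3. Hsf1 levels were 15.8, 16.4 and 18.8 FPKM in Fraction 5, 21.0 and 24.2 in Fraction 6, and 23.5, 18.6 and 20.9 in Fraction 7. Hsf1 had no call in Fraction 2 over Fraction 3 (0.30 ± 0.12 SE, adjusted p = 0.102), in Fraction 5 against Fraction 3 (-0.18) or in Fraction 7 against LZ (0.06). It was higher in Fraction 6 than in Fraction 5 (0.39 ± 0.12 SE, adjusted p = 0.0332) and in Fraction 7 than in Fraction 5 (0.29 ± 0.10 SE, adjusted p = 0.0337), calls lost on leaving out 1 library (Fraction 5 library 1 or 2 or either Fraction 6 library for the first, Fraction 5 library 1 or 2 or Fraction 7 library 1 or 3 for the second). Hsf2 was at 2.89, 3.51 and 3.42 FPKM in LZ, 3.57 and 3.15 in Fraction 2, and 3.06, 2.23 and 2.67 in Fraction 3. Hsf2 levels were 1.86, 1.54 and 1.96 FPKM in Fraction 5, 1.15 and 1.32 in Fraction 6, and 1.55, 1.84 and 1.01 in Fraction 7. Hsf2, a second factor of the family, was low throughout, with Fractions 6 and 7 at the bottom. It fell in Fraction 5 against Fraction 3 (-0.39 ± 0.14 SE, adjusted p = 0.0471) and in Fraction 7 against LZ (-0.80 ± 0.14 SE, adjusted p = 0.000152). RNA of immediate early genes, which handling of cells can induce, was tested as a list of 14 tested genes: 1 rose and 3 fell in Fraction 2 over Fraction 3 (of all tested genes, 9.17% and 6.45%), 3 rose and 0 fell in Fraction 5 against Fraction 3 (9.99% and 19.5%), and 7 rose and 1 fell in Fraction 7 against LZ (24.1% and 38.0%). Their part in the members' changes was not tested.

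Other genes of protein folding were tested in the same fit. Of 34 tested other cytosolic folding factors, 9 rose and 0 fell in Fraction 2 over Fraction 3 (of all tested genes, 9.17% rose and 6.45% fell), 0 rose and 11 fell in Fraction 5 against Fraction 3 (9.99% and 19.5%), and 0 rose and 28 fell in Fraction 7 against LZ (24.1% and 38.0%). Quantile normalization gave 2 higher and 7 lower in the second of these comparisons and 3 higher and 17 lower in the third. Among them Ruvbl1, an ATPase that works with HSP90 in complex assembly, was at 66.1 ± 3.31 FPKM (SD, n = 2) in Fraction 2 and 42.2 ± 2.24 (SD, n = 3) in Fraction 3, and Hspbp1, an HSP70 exchange factor, at 11.6 ± 1.09 (SD, n = 3) in Fraction 5 and 21.3 ± 1.03 (SD, n = 3) in Fraction 3. Of 17 other mitochondrial folding and protease genes, 6 rose and 1 fell in Fraction 2 over Fraction 3, and 10 fell and 1 rose in Fraction 5 against Fraction 3. The prohibitin gene Phb fell by 0.76 there and Phb2 by 0.62. Of 25 tested other J-domain genes, 2 rose and 1 fell in Fraction 2 over Fraction 3, and 4 fell and 1 rose in Fraction 5 against Fraction 3, where their median was 0.02. The second split was 4 higher and 2 lower under quantile normalization and 2 higher and 3 lower under median-ratio scaling. Of 11 tested other HSP70, small HSP and BAG genes, 1 rose and 1 fell in the first comparison and 1, Bag2, fell in the second (-1.12). Quantile normalization gave 0 higher and 2 lower in each of these comparisons for this list. No test of the difference between these lists and the members was made.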

How the data were processed

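RNA of sorted cells was taken up in TRIzol and made into libraries with an NEBNext Ultra RNA kit, per the labels' protocols. The authors deposited 1 table of FPKM values per gene and library, and the submitters' processing notes name TopHat2 2.0.8, Cufflinks 2.1.1 and the mouse build mm9 without stating their settings. The depth behind each value is unknown, and without strand information antisense or overlapping genes are not separated.

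From the deposited FPKM values, a single row with a blank name was dropped (1 row). log2(FPKM + 1) was fitted in limma 3.58.1 (R 4.3.3) for the 11266 genes that reached 1 FPKM in 2 or more libraries, with a mean for each of the 6 gates over 16 libraries and the trend option, and p-values were adjusted by Benjamini-Hochberg with a threshold of 0.05. The fit was tested on simulated data. Members and lists were chosen with earlier results of these data known. Values in every library were given for up to 3 members per role list, those with the widest range of gate means, and for 5 heat-inducible members, and members called against the direction of their list were named. Of each related list at most 2 genes per comparison were named, by smallest adjusted p. Fraction 7 against Fraction 5, the leave-out of Fraction 7 libraries 2 and 3, and the ratios and their exact tests were added after the data were seen. Alternatives were another pseudocount, filter or scaling, a replicate block, the 2 groups alone, and leaving out each library. Promoters came from RefSeq (GRCm38.p6). Python 3.11.15, pandas 2.3.3, numpy 2.4.6 and matplotlib 3.10.9 were used for the rest.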

Additional observations from a re-analysis of the deposited data

How the results depend on the processing

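The counts of members higher in Fraction 2 than in Fraction 3, lower in Fraction 5 than in Fraction 3 or Fraction 2, and lower in Fraction 7 than in LZ stayed within 1.5 times of the values reported under each alternative run. The small counts among the CD38-positive gates moved more. Fraction 6 against Fraction 5 had 0 members higher without the filter on low values, 2 under quantile normalization and 0 with only the 2 groups fitted, which also gave 3 lower. Fraction 7 against Fraction 6 had 1 member higher with a filter of 5 FPKM, 1 with the replicate block, 0 with only the 2 groups and 1 without libraries 2 and 3 of Fraction 7. Its lower count was 2 under quantile normalization, 1 with only the 2 groups and 1 without those libraries. Fraction 7 against LZ had 1 higher with a filter of 5 FPKM and 1 without those libraries. Fraction 7 against Fraction 5 had 9 higher under quantile normalization and 2 with only the 2 groups, and 8 lower without those libraries. The cause was not tested, apart from the smaller number of samples that the 2-group fits and the leave-outs hold by construction.

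Leaving out 1 library at a time gave 18 to 27 members higher in Fraction 2 than in Fraction 3, 28 to 32 lower in Fraction 5 than in Fraction 3 and 32 to 37 lower than in Fraction 2. Fraction 6 against Fraction 5 gave 0 to 1 higher and 0 to 10 lower, and Fraction 7 against Fraction 6 gave 0 to 2 higher and 1 to 7 lower. Fraction 7 against LZ gave 1 to 2 higher and 35 lower throughout, and Fraction 7 against Fraction 5 gave 2 to 4 higher and 13 to 18 lower. Where this leaves 1 library of Fraction 2 or Fraction 6, the fit takes the spread of the lone library from the other gates. Of 168 results on named members 105 were called, 35 of those lost the call in at least 1 alternative and 34 of them on leaving out 1 library, and none changed sign while called.

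Correlations of the deviations of same-numbered libraries lay between -0.18 and 0.13 over the gates compared. They reached 0.16 between Fractions 2 and 7, which were not compared. Whether same-numbered libraries share a pool is not stated in the labels. These correlations cannot decide it, because deviations from a mean of 2 or 3 libraries are tied to each other. With the replicate block the counts were 24 higher in Fraction 2 than in Fraction 3, 30 lower in Fraction 5 than in Fraction 3, 37 lower in Fraction 5 than in Fraction 2, and 10 lower and 1 higher in Fraction 6 than in Fraction 5.

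Scaling moved the split of calls over all tested genes. Quantile normalization gave 866 higher and 1041 lower in Fraction 2 against Fraction 3 (1033 and 727 as reported), 1675 and 1664 in Fraction 5 against Fraction 3 (1125 and 2197), 2713 and 2479 in Fraction 5 against Fraction 2 (1872 and 3056), 3464 and 3467 in Fraction 7 against LZ (2718 and 4279), 1205 and 1470 in Fraction 7 against Fraction 6 (830.0 and 1563), and 2708 and 2831 in Fraction 7 against Fraction 5 (2152 and 3216). Without read counts, no interval for counting error can be given for any value.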

Other observations

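The chaperones of the endoplasmic reticulum, which fold secreted and membrane proteins, were not among the members. Of 23 tested, 8 rose and 1 fell in Fraction 2 against Fraction 3, 0 rose and 13 fell in Fraction 5 against Fraction 3, and 2 rose and 15 fell in Fraction 7 against LZ. Of all tested genes 9.17% rose and 6.45% fell in the first comparison, 9.99% and 19.5% in the second, and 24.1% and 38.0% in the third. In the second, quantile normalization gave 3 higher and 12 lower. In the third, quantile normalization gave 7 higher and 12 lower, and median-ratio scaling 7 and 14. Pdia4, a disulfide isomerase, was at 33.2, 36.6 and 30.4 FPKM in LZ, 35.2, 39.0 and 32.8 in Fraction 5, 62.0 and 59.5 in Fraction 6, and 124, 136 and 117 in Fraction 7. Every Fraction 6 library lay above every Fraction 5 library, and every Fraction 7 library above both. Its change was 1.88 ± 0.08 (SE, adjusted p = 4.49e-10, limma) in Fraction 7 against LZ. Fraction 7 library 1, whose Igj and Sdc1 were the lowest of its gate, was at 124 FPKM. The part of plasma cell RNA in this change was not tested. Erp44, which retains client proteins in the early secretory pathway, took the opposite course. It was at 106, 109 and 114 FPKM in LZ, 79.9 and 84.6 in Fraction 6, and 35.0, 40.7 and 32.7 in Fraction 7, a change of -1.58 ± 0.09 (SE, adjusted p = 2.95e-09, limma) between Fraction 7 and LZ.

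Hspa2, an HSP70 best known from germ cells, had a wider range than any member. It was at 26.1, 25.9 and 25.2 FPKM in LZ, 20.3 and 22.2 in Fraction 2, and 29.6, 27.2 and 31.6 in Fraction 3. Its levels were 20.8, 26.0 and 22.1 FPKM in Fraction 5, 7.71 and 5.76 in Fraction 6, and 1.38, 2.32 and 1.14 in Fraction 7. The light zone gates and Fraction 5 lay above Fraction 6, and Fraction 6 above Fraction 7, without overlap. The change was -1.64 ± 0.16 (SE, adjusted p = 1.13e-05, limma) in Fraction 6 against Fraction 5 and -1.58 ± 0.16 (SE, adjusted p = 1.36e-05, limma) in Fraction 7 against Fraction 6. Among immediate early genes, Ier2 was 1.93 higher on the log2 scale in Fraction 7 than in Fraction 5 and Egr1 was lower by the same test (-1.50).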
